A study of Homo sapiens with 8 samples.

Results

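The 134 mature microRNA (miRNA) names described here are late entries of the miRNA catalogue. They were chosen by their name and their summed count, as names that end in -5p or -3p, carry a miR number of at least 3000 and hold at least 40 reads summed over the 8 libraries. A name that a library did not list was taken as 0, and miR-3607-5p, miR-3607-3p and miR-6724-5p were left out by the rule. The libraries list 1818 names in all, of which 685 are late-numbered names with a strand suffix at any count. The 134 names divide into 78 5p and 56 3p strands of 93 hairpins. Both strands are included for 41 hairpins, only the 5p strand for 37 and only the 3p strand for 15. The summed count chose the names, so their levels are a description and carry no test.

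All 8 libraries came from HCT116, a human colorectal carcinoma cell line, in which DICER was supplied as a rescue construct, and small RNAs were sequenced by AQ-seq, a protocol made to reduce ligation bias. The 4 groups of 2 libraries were the Wild-Type (WT), R1855L, R821H and R1003Q rescues, so all groups share the cell line and the rescue and differ by 1 substitution in DICER. The labels give neither the fate of the cell's own DICER nor whether a line was 1 clone. They do not state that replicates were separate cultures either, so p-values measure the spread between libraries, which may be technical.

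The RNase III enzyme DICER cuts a precursor hairpin near its loop and releases a duplex of a 5p and a 3p strand, one of which is then kept by an Argonaute protein. R1855L changes a residue of the C-terminal double-stranded RNA-binding domain. Many late-numbered hairpins were found by deep sequencing, are weakly expressed and lie in introns of other genes. Some are mirtrons, whose hairpin is a whole short intron made by splicing, without the Drosha cut, so that 1 or both ends of the hairpin are intron ends.

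The sequences below are among those on which the results turn, from RefSeq on GRCh38.p14, written 5′ to 3′ with the seed (bases 2 to 8, which pair with target mRNAs) in capitals. A RefSeq mature sequence was found for 112 of the 134 names. The first is the most abundant name, the next 2 are the strands of the hairpin with the clearest difference, and the miR-6765 strands follow because their ratio differed. miR-5699-3p was lower than WT in all mutant libraries. The last 5 are 3p strands whose final base is the final base of an annotated intron, as is that of miR-6765-3p. All of these 6 end in AG, the letters with which most introns end.
miR-3613-5p: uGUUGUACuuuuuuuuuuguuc
miR-3200-5p: aAUCUGAGaaggcgcacaaggu
miR-3200-3p: cACCUUGCgcuacucaggucug
miR-6765-5p: gUGAGGCGgggccaggagggugugu
miR-6765-3p: uCACCUGGcuggcccgcccag
miR-5699-3p: uCCUGUCUuuccuuguuggagc
miR-5010-3p: uUUUGUGUcucccauuccccag
miR-3605-3p: cCUCCGUGuuaccuguccucuag
miR-3620-3p: uCACCCUGcaucccgcacccag
miR-6803-3p: uCCCUCGCcuucucacccucag
miR-7111-3p: aUCCUCUCuucccuccucccag

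The 2 tested hairpins with the largest strand shifts in R1855L differ in how they sit in their host genes, and are shown whole, with both mature strands in capitals. MIR3200 (GRCh38, chr22:30731557-30731641, + strand, 85 bases) lies inside an intron of OSBP2, away from its ends. MIR6765 (chr14:105150778-105150864, - strand, 87 bases) is a complete intron of JAG2, a Notch ligand gene: its 5p strand begins with the intron's first base and its 3p strand ends with the last.
MIR3200: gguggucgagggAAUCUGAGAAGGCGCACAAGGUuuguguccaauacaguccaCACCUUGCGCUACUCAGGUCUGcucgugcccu
MIR6765: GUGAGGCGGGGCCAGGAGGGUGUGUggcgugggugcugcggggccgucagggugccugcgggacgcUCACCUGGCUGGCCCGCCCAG

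Near copies were rare. The only seed shared among the names with a sequence is CUCACCA of miR-6511a-3p and miR-6511b-3p, which differ by the substitution U9C (counted from the 5′ end, a first). None shares its seed with the 10 most abundant names of WT. The 5p strands of the same pair share a run of 21 bases, which starts at base 1 in miR-6511a-5p and at base 4 in miR-6511b-5p. Their counts are identical in all 8 libraries, so they are not 2 independent measurements.
miR-6511a-5p: cAGGCAGAaguggggcugacagg
miR-6511b-5p: cUGCAGGCagaaguggggcugaca
miR-6511a-3p: cCUCACCAucccuucugccugc
miR-6511b-3p: cCUCACCAccccuucugccugca

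All 134 names lie on a hairpin of GENCODE release 29 (GRCh38), of which 8 names have more than 1 hairpin and 10 lie opposite another miRNA hairpin. Hairpin ends lie within 10 bases of both ends of an intron for 18 names, of 1 end for 33 and of neither for 83. Intron ends are concentrated at high numbers: 37 of the 45 names from 6000 upward have one, against 5 of 48 names in the 3000s, 9 of 30 in the 4000s and 0 of 11 in the 5000s. The strands are rich in G and C, with a median GC content of 59.1% over 65 5p and 63.6% over 47 3p sequences. In the 492 names below 3000 that also reach 40 reads and carry a suffix, the medians were 47.6% and 50%. A first base of U, which Argonaute proteins often favour, was present in 44.6% of these 5p and 51.1% of these 3p strands, against 43.6% and 30.7% in the lower-numbered names.

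The libraries held between 462805 (R1855L replicate 2) and 4269231 reads (WT replicate 2), and a count of 0 allows 3 reads, or 0.703 to 6.48 CPM (counts brought to the same total in every library). WT replicate 2, R1855L replicate 1 and R821H replicate 1 were deep, and the other 5 libraries, both of R1003Q among them, were shallow. The 134 names took 0.518% (WT replicate 2) to 0.765% (R1855L replicate 1) of a library's reads, and a typical one had a median of 5 to 29 reads per library. No molecular identifiers are mentioned for these reads, and intervals and floors therefore cover only counting error. The miRNAs of the HCT116 marker list were present, at unequal levels. miR-31-5p measured 37680 to 53076 CPM, and miR-192-5p, miR-194-5p and miR-200b-3p ranged from 120 to 1562 CPM. miR-200c-3p and miR-141-3p reached at most 43.7 and 42.9 CPM. Both lay below liver miR-122-5p (60.7 to 114 CPM) and blood miR-142-3p (257 to 449 CPM). Markers of other cell types were mixed. Blood miR-155-5p, neuronal miR-124-3p and muscle miR-206 had at most 1.67 reads in any library. Blood miR-142-3p (208 to 1284 reads) and miR-451a (78 to 978 reads), neuronal miR-9-5p (246 to 3329 reads) and liver miR-122-5p (39 to 259 reads) were read in every library, and their part in the results was not tested.

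These names were weakly expressed, and 1 of them dominated. The median level in WT was 7.33 CPM, over names whose WT means ran from 0.910 to 3022 CPM. Only 4 names exceeded 100 CPM, 49 lay between 10 and 100 CPM, and 81 lay under 10 CPM. The summed count had a median of 94 reads, 70 names held under 100, and 7 held at least 1000. Even so, 114 names were read in all 8 libraries, 20 were at 0 in some library, and 0 were at 0 in both libraries of a group. The names nearest to the minimum were miR-4728-3p and miR-6514-5p (40 reads each) and miR-6733-5p and miR-6794-3p (41 reads each) inside it, and miR-5583-5p (39.5 reads), miR-4690-3p (39 reads) and, at 38 reads, miR-6726-3p, miR-4423-3p, miR-3173-3p and miR-4742-5p outside it.

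miR-3613-5p, from an intron of DLEU2, the host gene of the miR-15a and miR-16-1 hairpins, held 53953 reads and between 45.7% and 73.8% of the reads of the 134 names per library. Given as replicates 1 and 2, here and below, it measured 2297 and 3748 CPM in the WT libraries, 6226 and 2570 with R1855L, 4208 and 3913 with R821H, and 3828 and 3637 with R1003Q. R1855L replicate 1 was the highest library and R1855L replicate 2 lay between the WT libraries. The log2 fold change of R1855L against WT was 0.54 (SE 0.43, edgeR quasi-likelihood adjusted p = 0.566), and without R1855L replicate 1 it was -0.23. Its level also moved with depth: it was 0.69 higher on the log2 scale in the deep libraries.

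**Figure D1:**
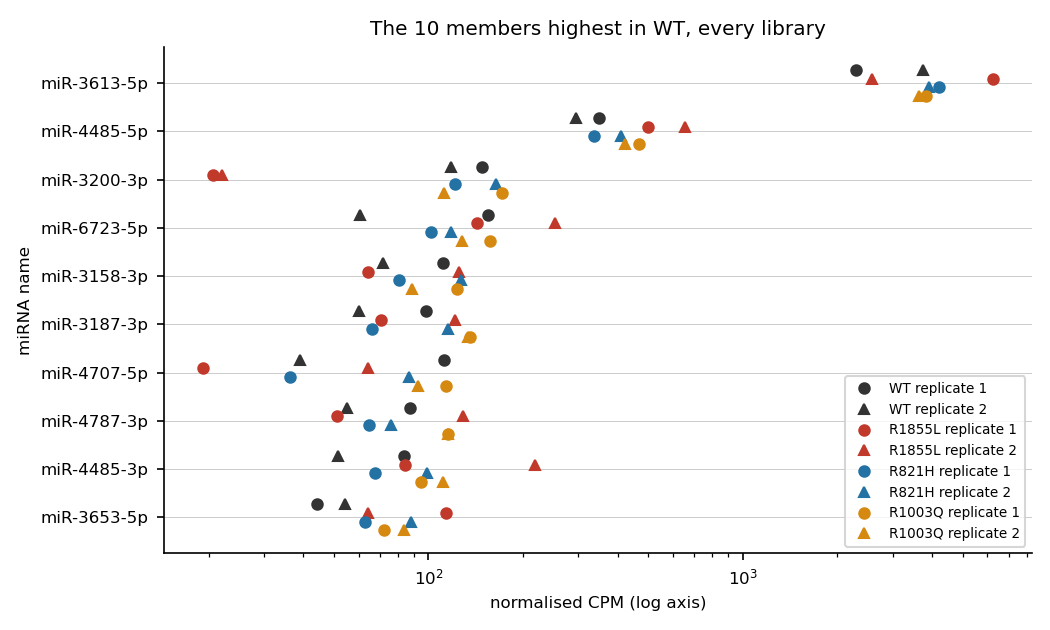
Levels of the 10 late-numbered names with the highest mean in WT, in each of the 8 libraries, as TMM-normalised CPM on a log axis, with circles for replicate 1 and triangles for replicate 2. miR-3613-5p lies between 2297 and 6226 CPM, while the next name, miR-4485-5p, lies between 294 and 657 CPM.

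Several of the other abundant names overlap other genes or lie opposite one. Where they overlap an exon on the same strand, their reads cannot be told apart from fragments of that gene. For the name opposite a gene, the source of the reads was not tested. MIR4485 (chromosome 11) overlaps an exon of MTRNR2L8, a gene that resembles the mitochondrial 16S ribosomal RNA. MIR3653 (22) overlaps the small nucleolar RNA SNORD125, MIR6516 (17) overlaps SCARNA16, and MIR6723 (1) lies opposite MTCO1P12, a copy of a mitochondrial gene. miR-4485-5p measured 349 and 294 CPM in the WT libraries, 500 and 657 with R1855L, 336 and 410 with R821H, and 468 and 421 with R1003Q. Both R1855L libraries were the highest of the 8, with a log2 fold change of 0.85 (SE 0.24, edgeR adjusted p = 0.103), which did not pass the test. miR-4485-3p and miR-3653-5p had log2 fold changes of 1.15 and 0.88, with both R1855L libraries above WT and adjusted p of 0.270 and 0.254. miR-6723-5p measured 155 and 60.3 CPM in WT and 143 and 252 CPM in R1855L, so that the groups overlapped.

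miR-3158-3p, miR-3187-3p, miR-4787-3p and miR-4707-5p complete the 10 most abundant names. miR-3158-3p, whose hairpins MIR3158-1 and MIR3158-2 lie opposite each other in an intron of DPCD, ranged over 64.2 to 127 CPM and overlapped between WT and every mutant. miR-3187-3p measured 98.0 and 60.1 CPM in WT and 136 and 134 CPM in R1003Q (log2 fold change 0.78, adjusted p = 0.857), and miR-4787-3p measured 87.3 and 55.1 CPM in WT and 115 CPM in both R1003Q libraries (0.70, 0.857). The R1003Q libraries were above WT for both names, without passing the test. miR-4707-5p spanned 19.2 to 114 CPM and was 1.49 lower on the log2 scale in the deep libraries.

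Depth moved with many levels. With group in the model, 21 of the 78 names that could be tested (26.9%) differed between deep and shallow libraries, against 228 of all 625 names tested (36.5%). In the deep libraries 5 of the 21 were higher (17.8% of all names) and 16 lower (18.7%). The median difference, deep minus shallow, was -0.22 for the 5p and -0.54 for the 3p strands described here, and -0.03 over all names tested. Each group but R1003Q holds 1 deep and 1 shallow library, so differences between deep and shallow libraries add to the spread within those groups. Read depth cannot be told apart here from any other difference between those libraries, and its part was not tested. For R1003Q against WT, depth is partly tied to the group.

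R1855L was the substitution with differences that passed the test. Of the 134 names, 78 (45 5p and 33 3p) had enough reads to be tested, within a fit to 625 names. Against WT, 2 of the 78 were called at an adjusted p under 0.05, both lower: miR-3200-3p and miR-6886-5p. The second passed the read filter only through its WT libraries, so a call higher than WT was not open to it. Over all names, 36 of 625 were called (5.76%), most of them lower (5.44%), so the late-numbered names do not exceed that share. At an unadjusted p under 0.05 there were 11 of 78 against 115 of 625 (18.4%), and DESeq2 called 3 of 78 against 52 (8.32%), the third being miR-6765-3p.

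miR-3200-3p was lower in R1855L than in the other groups. Its counts were 195 and 455 reads in the WT libraries, 42 and 12 with R1855L, 357 and 138 with R821H, and 192 and 79 with R1003Q. That is 148 and 118 CPM in the WT libraries, 20.7 and 22.1 with R1855L, 122 and 164 with R821H, and 172 and 112 with R1003Q. The 2 R1855L libraries lay far below the other 6, which overlapped among themselves, and they did so in the deep and in the shallow library. Against WT the log2 fold change was -2.64 (SE 0.34, edgeR adjusted p = 0.00651), a 6.25-fold lower level.

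The difference in miR-3200-3p between the mutants was tested as well. R821H exceeded R1855L by 2.74 (SE 0.35, edgeR adjusted p = 0.00700) and R1003Q exceeded R1855L by 2.74 (SE 0.35, adjusted p = 0.00688). These were the only calls among the 78 names in those comparisons, where 3.84% and 3.68% of all names were called. R821H and R1003Q each differed from WT by 0.10 (SE 0.31 for both), with adjusted p of 0.994 and 0.970. The deep pair of libraries gave a log2 ratio of R1855L to WT of -2.50 and the shallow pair -2.69. With 1 library fewer the call was lost in some cases: without R1855L replicate 1 the adjusted p was 0.0593 against WT, 0.0529 against R821H and 0.0720 against R1003Q. It was 0.0501 without R821H replicate 2 and 0.0728 without R1003Q replicate 1, and in a fit to only the WT and R1855L libraries it was 0.10 with the same fold change.

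The 5p strand of the same hairpin did not pass the test in R1855L. miR-3200-5p had 11 and 86 reads in the WT libraries, 41 and 4 with R1855L, 64 and 4 with R821H, and 11 and 13 with R1003Q. Its levels of 8.35 and 22.4 CPM in WT and 20.2 and 7.36 CPM in R1855L overlapped, with a log2 fold change of -0.08 (SE 0.77, adjusted p = 0.964). The deep libraries stood 1.63 above the shallow ones on the log2 scale.

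miR-6886-5p was lower than WT in the libraries of all 3 mutants. It had 26 and 72 reads in the WT libraries, 6 and 2 with R1855L, 9 and 3 with R821H, and 5 and 3 with R1003Q. In CPM these are 19.7 and 18.7 in WT against 2.95 and 3.68, 3.07 and 3.57, and 4.47 and 4.27. No mutant library reached a WT library. The name passed the read filter through its WT libraries.

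The log2 fold change of miR-6886-5p was -2.57 in R1855L (SE 0.45, edgeR adjusted p = 0.0172), -2.54 in R821H (SE 0.42, adjusted p = 0.247) and -2.11 in R1003Q (SE 0.44, adjusted p = 0.486). Only the first passed the test. With the depth class as a term R821H was called as well, at -2.54 (adjusted p = 0.00246, with 2.56% of all names called). R821H and R1003Q differed from R1855L by 0.03 and 0.46 without a call. The 3 comparisons share the WT libraries. The R1855L call was lost without WT replicate 1 (adjusted p = 0.0798), WT replicate 2 (0.0738), R1855L replicate 1 (0.106), R1003Q replicate 1 (0.0550) or R1003Q replicate 2 (0.0541). It was also lost under library totals as the scale (0.0540), and in a fit to only the WT and R1855L libraries (0.127).

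**Figure D2:**
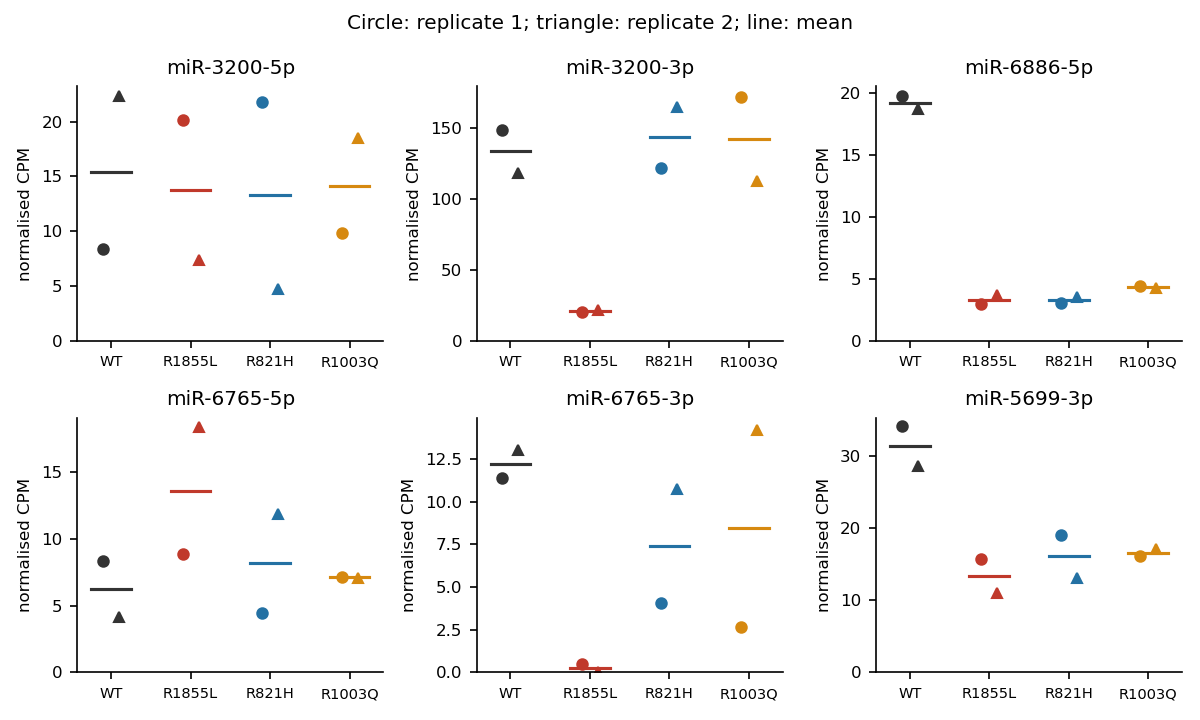
CPM in each library, with a line at the group mean and an axis from 0, for both strands of miR-3200 and miR-6765, miR-6886-5p and miR-5699-3p. miR-3200-3p lies at 20.7 and 22.1 CPM in R1855L and at or above 112 CPM elsewhere, while miR-6886-5p is near 19 CPM only in WT.

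miR-6765-3p, the 3p strand of the JAG2 mirtron, was nearly absent from R1855L. It had 15 and 50 reads in the WT libraries, 1 and 0 with R1855L, 12 and 9 with R821H, and 3 and 10 with R1003Q. Both R1855L libraries were the lowest of the 8. Pooled, 1 read in R1855L against 65 in WT is a depth-scaled ratio of 0.0308 (exact 95% interval 0.000768 to 0.178). The adjusted p was 0.0716 by edgeR and 0.0233 by DESeq2. Within edgeR it was 0.000131 without the read filter and 0.000646 with the depth class as a term, so the call depends on the filter and the model. The 5p strand had no called difference: miR-6765-5p counted 11 and 16 reads in the WT libraries, 18 and 10 with R1855L, 13 and 10 with R821H, and 8 and 5 with R1003Q (log2 fold change 1.08 in R1855L, SE 0.67, adjusted p = 0.448).

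miR-5699-3p, from an intron of DIP2C on chromosome 10, measured 34.2 and 28.6 CPM in the WT libraries, 15.7 and 11 with R1855L, 19.1 and 13.1 with R821H, and 16.1 and 17.1 with R1003Q. All 6 mutant libraries were below both WT libraries. The log2 fold changes were -1.16 (SE 0.36, adjusted p = 0.140), -0.91 (SE 0.35, 0.994) and -0.91 (SE 0.36, 0.857), none of which passed the test. Its 5p strand had a log2 fold change of 0.22 in R1855L.

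Counts of names whose libraries separate from WT were close to those over all names. Both R1855L libraries were outside the WT range for 57 of the 134 names (42.5%), against 41.2% of the 771 names of any kind with at least 40 reads. Of these, 32 were below WT (21% over all names) and 25 above (20.2%). For R821H the count was 40 of 134 (29.2% over all names) and for R1003Q 44 of 134 (39.2%).

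**Figure D3:**
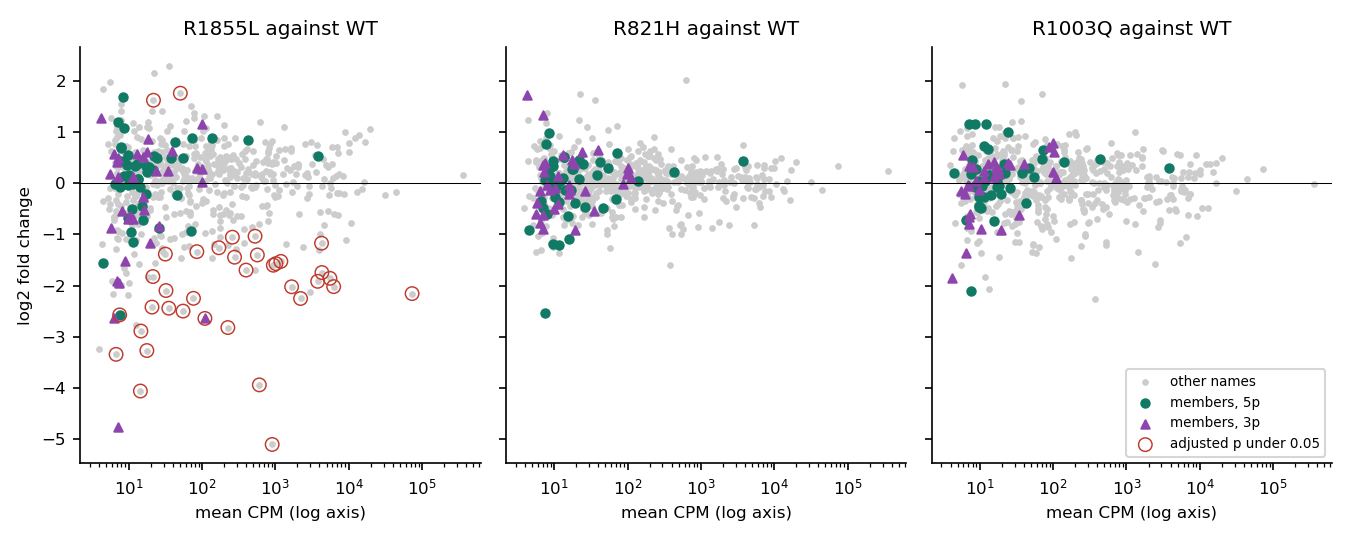
Log2 fold change of each mutant against WT (1 panel per mutant) against the mean level in CPM on a log axis, for 625 tested names; grey points are other names, circles are late-numbered 5p and triangles late-numbered 3p strands, and red rings mark adjusted p under 0.05. Rings on late-numbered names appear only in the R1855L panel, at miR-3200-3p (-2.64) and miR-6886-5p (-2.57).

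Other differences in R1855L were smaller and did not pass the test. Among tested names that averaged 10 CPM or more across R1855L and WT together and whose libraries separated from WT, the highest log2 fold changes after miR-4485-3p, miR-3653-5p and miR-4485-5p were those of miR-4662a-5p (0.80) and miR-6516-3p (0.62). The lowest, after the names above, were miR-3619-5p (-1.14), which lies in the let-7b host gene MIRLET7BHG, and miR-4664-5p (-0.87). With the depth class as a term, 16 of the 78 names were called in R1855L, against 28.3% of all names tested. The 10 lower ones were miR-3200-3p, miR-3605-3p, miR-4664-5p, miR-4707-5p, miR-4783-3p, miR-5010-3p, miR-5699-3p, miR-6765-3p, miR-6777-3p and miR-6886-5p. The 6 higher ones were miR-3653-5p, miR-4485-3p, miR-4485-5p, miR-4662a-5p, miR-4690-5p and miR-6723-5p.

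R821H and R1003Q had no late-numbered name past the test. Against WT, edgeR called 0 of 78 names in R821H and 0 of 78 in R1003Q, with 0% of all 625 names called in each. At an unadjusted p under 0.05 the counts were 2 in R821H (3.2% of all names) and 2 in R1003Q (4.96%), in both cases miR-6886-5p and miR-5699-3p. DESeq2 called 0 of the late-numbered names in either, with 0.16% and 0% of all names. In R821H the highest log2 fold changes, by the same rule, were those of miR-6516-3p (0.64), miR-3928-3p (0.61), miR-3653-5p (0.60) and the identical pair miR-6511a-5p and miR-6511b-5p (0.52). After miR-6886-5p the lowest were miR-3619-5p (-1.20), miR-5008-5p (-1.09), miR-5699-3p (-0.91) and miR-3613-3p (-0.53).

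In R1003Q the highest were miR-6789-5p (1.15) and miR-6821-5p (1.00), whose hairpins lie at both ends of an intron, then miR-3187-3p (0.78), miR-4758-5p (0.72) and miR-4787-3p (0.70). After miR-6886-5p the lowest were miR-5699-3p (-0.91), miR-5582-3p (-0.89), miR-3613-3p (-0.63) and miR-6511b-3p (-0.12). Between R1003Q and R821H, 0 of 78 names were called by edgeR (0% of all names) or by DESeq2. At an unadjusted p under 0.05 there were 3 (1.6% of all names): miR-3928-5p and miR-4758-5p were higher in R1003Q and miR-4664-3p was lower.

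By strand, the 3p names lay lower in R1855L than the 5p names when every name was counted, and the gap rested on 1 library. Over the tested names the median log2 fold change was 0.26 for 45 5p and 0.12 for 33 3p strands, against 0.13 over all 625 names. Without the read filter, which admits all 134 names, the medians were 0.12 for 78 5p and -0.66 for 56 3p strands, against -0.01 over all 771 names with at least 40 reads. In the lower-numbered names they were 0.10 for 5p and -0.22 for 3p strands. Of the 56 3p strands, 37 were below 0, 22 had both R1855L libraries below both WT libraries, and 7 had both above. For the 78 5p strands the counts were 34, 10 and 18. Over all 771 names, 21% had both R1855L libraries below WT and 20.2% had both above. Such shares are not given here for lower-numbered names by strand, so the counts are not read as particular to the late-numbered names. The difference of the 2 medians was -0.78 with all libraries and -0.08 without R1855L replicate 1.

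Summed over all 56 3p strands, the level was 935 ± 160 CPM in WT (SD, n = 2 libraries), 887 ± 356 CPM in R1855L, 962 ± 185 CPM in R821H and 1068 ± 13.6 CPM in R1003Q. The R1855L libraries lay on either side of both WT libraries. In R821H and R1003Q the unfiltered medians were near 0 for both strands, at -0.04 and 0.02 for 5p and -0.16 and -0.04 for 3p.

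**Figure D4:**
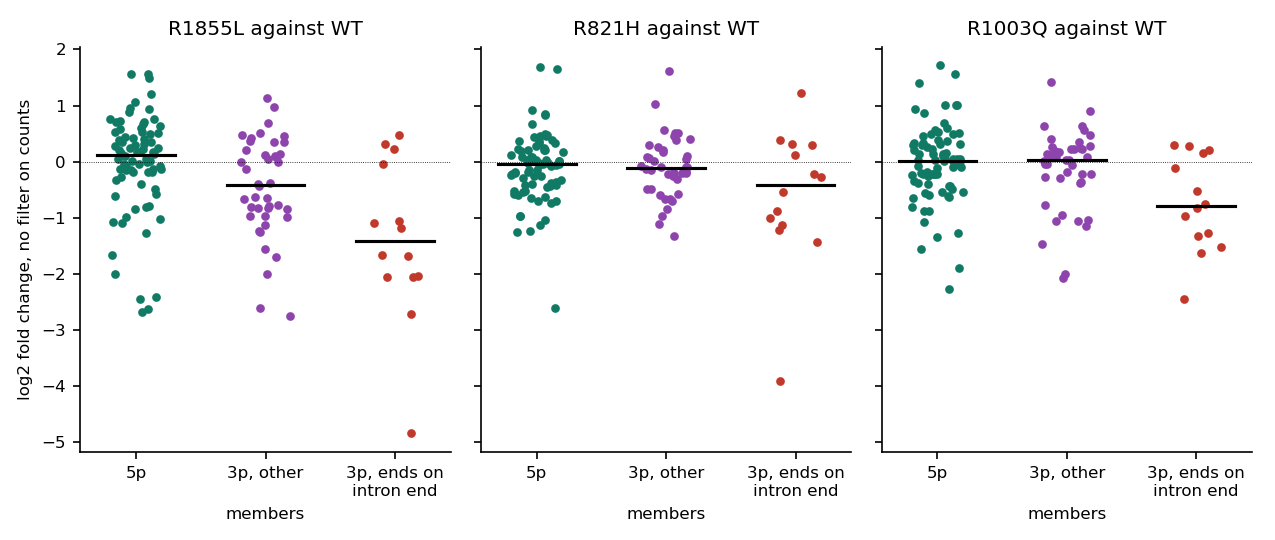
Log2 fold change against WT without the read filter, for 5p strands, 3p strands that end on the last base of an annotated intron and the remaining 3p strands, with a black line at each median. In R1855L the median is -1.42 for the 3p strands that end on an intron's last base. It is -0.64 for the 33 other 3p strands with a RefSeq sequence, while the plotted class and its line also include those without one.

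Among 3p strands the values differed with the place of the hairpin in its intron. The 15 3p strands of hairpins with 1 intron end had an unfiltered median of -0.98 in R1855L, and 14 of them were below 0. The 9 3p strands of hairpins at both intron ends had a median of -0.67, with 5 below 0 and 4 above. The 32 away from intron ends had one of -0.07, with 18 below 0. Summed, the 15 gave 136 and 112 CPM in WT and 47.7 and 120 CPM in R1855L. The 9 gave 80.5 and 49.7 CPM, then 32.0 and 77.3 CPM, and the 32 gave 832 and 661 CPM, then 555 and 942 CPM. In each class R1855L replicate 1 was below both WT libraries, while R1855L replicate 2 was not. Medians with a library left out are not given for these classes. Among the 47 3p strands with a RefSeq sequence, 14 end exactly on the last base of an annotated intron, a list made after the values were seen and given with no test. They are the 3p strands of miR-3605, miR-3620, miR-4728, miR-5010, miR-6765, miR-6777, miR-6789, miR-6803, miR-6805, miR-6807, miR-6821, miR-6892, miR-7108 and miR-7111. Their unfiltered median in R1855L was -1.42, from -4.85 (miR-6765-3p) to 0.48 (miR-6807-3p), with 11 of 14 below 0. Several of the 14 reached the 40-read minimum only through their WT reads. WT held 65 of the 100 reads of miR-6765-3p, 57 of the 91 of miR-5010-3p and 40 of the 55 of miR-7111-3p. For such names the rule favoured a lower level in the mutants, so the medians of this list are partly set by it. Both R1855L libraries were below both WT libraries for 9 of the 14 and above for 0, against 11 and 4 of the other 33 3p strands, whose median was -0.64. The background for names below WT in this sense is the 21% given above.

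Named cases carry few reads. miR-5010-3p, from ATP6V0A1, a proton pump subunit gene, had 18 and 39 reads in the WT libraries, 5 and 0 with R1855L, 11 and 10 with R821H, and 4 and 4 with R1003Q. The pooled, depth-scaled ratio of R1855L to WT was 0.176 (0.0550 to 0.434), with an adjusted p of 0.157 by edgeR. miR-3605-3p, from PHC2, a Polycomb gene, had 15 and 28 reads in the WT libraries, 5 and 1 with R1855L, 28 and 13 with R821H, and 8 and 3 with R1003Q (ratio 0.279 in R1855L, adjusted p = 0.140). For both names the 2 R1855L libraries were the lowest of the 8.

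miR-7111-3p, from an intron of the ribosomal protein gene RPL10A, differed in the order of the mutants. It had 15 and 25 reads in the WT libraries, 6 and 4 with R1855L, 2 and 0 with R821H, and 1 and 2 with R1003Q, too few to be tested. The depth-scaled ratio to WT was 0.0684 (0.00801 to 0.264) in R821H and 0.212 (0.0420 to 0.667) in R1003Q. Here R1855L kept more reads than the other 2 mutants.

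In the other mutants the values of these 14 3p strands depended on the library. Their medians were -0.41 in R821H, with 5 of 14 below WT and 1 above, and -0.79 in R1003Q, with 4 below and 1 above. Over all 771 names with at least 40 reads, 13.1% were below WT and 16.1% above in R821H. In R1003Q these shares were 17.4% and 21.8%. Without R821H replicate 1 the R821H median was -0.16, and without R1003Q replicate 2 the R1003Q median was -1.22. In R1855L the median was -1.31 without replicate 1, -1.79 without replicate 2 and -1.35 with the depth class as a term. Summed, the 14 names gave 133 and 89.2 CPM in WT and 42.8 and 84.6 CPM in R1855L, then 73.0 and 116.7 CPM in R821H and 65.3 and 92.4 CPM in R1003Q. R1855L replicate 1 was the lowest library, and R1855L replicate 2 lay just under WT replicate 2. The 7 5p strands that start on an intron's first base (of miR-3940, miR-4758, miR-6765, miR-6789, miR-6807, miR-6858 and miR-7108) had a median of 0.14 in R1855L. Of these, 1 was below WT (21% over all names) and 1 above (20.2%).

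Other groupings by number or place gave medians near those of all names. The unfiltered medians in R1855L were -0.04 for the 48 names in the 3000s, -0.06 for the 30 in the 4000s, -0.16 for the 11 in the 5000s and -0.04 for the 45 from 6000 upward. The 10 names opposite another miRNA hairpin had a median of 0.21, and the 8 with several hairpins one of -0.08.

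The balance of the 2 strands within a hairpin does not depend on how libraries are scaled. It was taken as log2 of 5p over 3p reads, with 0.5 added to each, and tested with limma in 174 hairpins with at least 80 reads per strand, of which 19 are late-numbered. In R1855L against WT, 1 of the 19 was called, against 13 of 174 (7.47%). That hairpin was miR-6765. Its log2 ratio was -0.43 and -1.61 in the WT libraries, 3.62 and 4.39 with R1855L, 0.11 and 0.14 with R821H, and 1.28 and -0.93 with R1003Q. The R1855L libraries were the highest of the 8, and the change was 5.03 (SE 0.84, adjusted p = 0.00902). The hairpin reached the 80-read minimum only through WT, which held 65 of the 100 reads of its 3p strand. The minimum therefore favoured a ratio that is higher in the mutants. With 5 in place of 0.5 added to each count it was 2.62 (adjusted p = 0.0191), and over all the alternatives run the adjusted p stayed at or under 0.0473.

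The 5p strand of miR-6765 thus made up 29.3% of the reads of both strands in WT, 96.6% in R1855L, 52.3% in R821H and 50% in R1003Q. The ratio was 3.88 lower in R821H than in R1855L on the log2 scale (limma adjusted p = 0.0316, with 6.32% of all hairpins called) and 3.83 lower in R1003Q (adjusted p = 0.0304, 7.47%). The changes of R821H and R1003Q against WT, 1.15 and 1.20, did not pass the test. Both calls between mutants were lost with 5 added to each count (adjusted p = 0.123 and 0.117) and without R1855L replicate 2 (0.0873 and 0.0795). The R821H call was also lost without either R821H library (0.130 and 0.185). The R1003Q call was lost without R1003Q replicate 2 (0.256), R1855L replicate 1 (0.0713), R821H replicate 1 (0.0534) or R821H replicate 2 (0.0586).

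Next came miR-3200, whose ratio was 2.49 higher in R1855L (SE 0.97, adjusted p = 0.193) and did not pass the test. Its 5p share was 13% in WT, 45.5% in R1855L, 12.1% in R821H and 8.1% in R1003Q, the R1855L value being carried by replicate 1, which gave 41 of the 45 5p reads. With the depth class as a term the change was called (adjusted p = 0.000113). At an unadjusted p under 0.05 there were 4 of 19 late-numbered hairpins (20.1% of all 174). The other ones were miR-5699, with a change of 1.42 (SE 0.59, adjusted p = 0.223) and a 5p share that went from 39.2% to 60.0%, and miR-3065, with a change of 1.40 (SE 0.60, adjusted p = 0.233) and a share that went from 74.6% to 85.9%.

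The other 15 tested hairpins changed by -0.62 to 1.30 in R1855L. Toward 5p lay miR-5582 (1.30), miR-6511b (0.72), miR-6511a (0.27), miR-3613 (0.22), miR-6516 (0.22) and miR-3653 (0.01). Toward 3p lay miR-4707 (-0.08), miR-5008 (-0.14), miR-3158 (-0.15), miR-4485 (-0.21), miR-5580 (-0.34), miR-6807 (-0.36), miR-5001 (-0.45), miR-4787 (-0.54) and miR-3667 (-0.62). The median over the 19 was 0.01, with 10 toward 5p and 9 toward 3p, against 0.23 over all 174. In R821H and R1003Q against WT, limma called 0 of the 19 (0% of 174 in each), and 0 of the 19 had an unadjusted p under 0.05, against 3 (1.72%) and 8 (4.6%) of all hairpins.

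**Figure D5:**
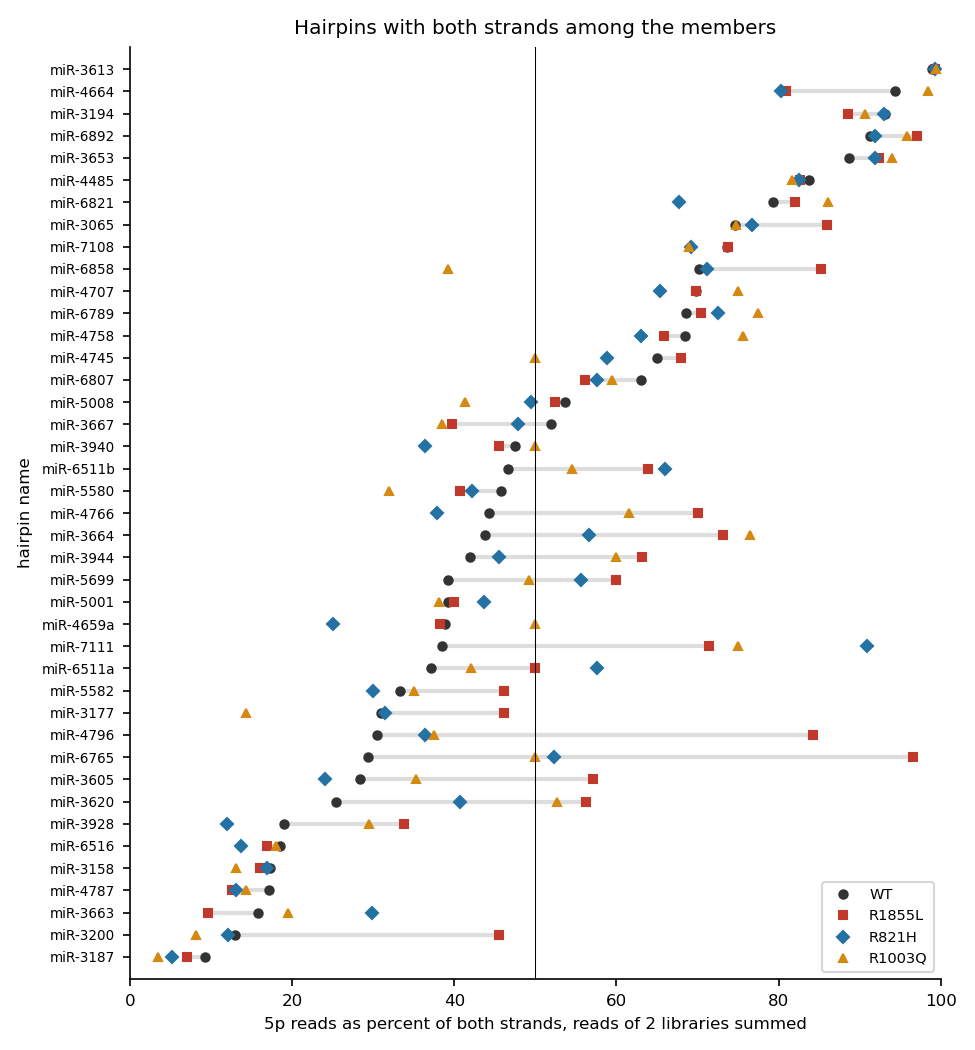
Share of the 5p strand in the reads of both strands, in percent, for the 41 hairpins with both strands included, with the reads of a group's 2 libraries summed. miR-6765 goes from 29.3% in WT to 96.6% in R1855L, while miR-3613 stays between 98.9% and 99.4% in all groups.

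The remaining 22 hairpins had under 80 reads on a strand and entered only a fit at a minimum of 40 reads per strand. That fit covered all 41 hairpins, and limma called 1 of them in R1855L against WT, again miR-6765, against 6.14% of 228 hairpins. It called 0 of the 41 in R821H and 0 in R1003Q (0% of 228 in each). None of the 22 was called, and in R1855L 2 of them had an unadjusted p under 0.05: miR-4664, with a change of -2.25 (SE 0.92, adjusted p = 0.239), and miR-4796, with one of 2.64 (SE 1.15, adjusted p = 0.262). The 5p strand led in 17 of 41 hairpins in WT, in 26 in R1855L (1 was even), in 21 in R821H and in 19 in R1003Q (4 were even). From WT to R1855L, 10 hairpins went from a 3p lead to a 5p lead and 1 went the other way, while the counts were 6 and 2 in R821H and 6 and 3 in R1003Q. Leads were not counted over all 228 hairpins, so the moves of the lead are not read as particular to the 41. In R1855L 25 of the 41 and 148 of the 228 changed toward 5p, by any amount. At that minimum the median change of the 41 hairpins in R1855L was 0.23, against 0.27 over all 228 hairpins.

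Among the 22 hairpins with fewer reads the widest move toward 5p in R1855L was that of miR-4796, whose 5p share was 30.5% in WT and 84.2% in R1855L, with 36.4% in R821H and 37.5% in R1003Q. From WT to R1855L the share also went from 28.3% to 57.1% for miR-3605, from 44.2% to 70.0% for miR-4766, from 25.4% to 56.2% for miR-3620, from 43.8% to 73.1% for miR-3664 and from 41.9% to 63.2% for miR-3944. It was 38.5% and 71.4% for miR-7111, which reached 90.9% in R821H and 75% in R1003Q. Smaller moves toward 5p were those of miR-3928 (19% to 33.8%), miR-3177 (30.9% to 46.2%), miR-6858 (70.2% to 85.2%), miR-6892 (91.3% to 97.0%), miR-4745 (65% to 68.0%), miR-6821 (79.3% to 81.9%) and miR-6789 (68.5% to 70.4%).

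The shares of the other 8 stayed or went toward 3p. These were miR-7108 (73.6% to 73.7%), miR-4659a (38.9% to 38.2%), miR-3940 (47.5% to 45.5%), miR-3187 (9.3% to 7.1%), miR-4758 (68.4% to 65.9%), miR-3194 (93.0% to 88.5%), miR-3663 (15.8% to 9.6%) and miR-4664 (94.3% to 81.0%). All of these shares rest on few reads.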

How the data were processed

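Small RNAs of 8 HCT116 libraries were measured. Per the labels' protocols, 100 µg of total RNA (TRIzol) entered AQ-seq, with NEBNext Ultra II Q5 amplification and NovaSeq sequencing. The submitters' processing notes name cutadapt, BWA, bedtools, hg38 and mm10, with no versions or roles. The authors deposited estimated counts per mature name, not normalised, in 1 table per library. Of the names, 19 to 33 per library hold fractions.

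Counts were rounded and tested with edgeR 4.0.16 (R 4.3.3; TMM, filterByExpr, robust quasi-likelihood, group only, all 8 libraries in 1 fit), with Benjamini-Hochberg adjustment over 625 names. The SE is the absolute log2 fold change over the square root of F. Strand ratios used limma 3.58.1. DESeq2 1.42.0, other scalings, other filters, a replicate block, a depth term and leaving out libraries were alternatives. Methods were tested on simulated data. Hairpins came from GENCODE 29, sequences from RefSeq (GRCh38.p14). Figures used matplotlib 3.10.9.

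The names, lists and tests were chosen with earlier results of these data known. The text names names called in any comparison, the 10 highest in WT, per mutant the 5 highest and 5 lowest fold changes of tested names that averaged 10 CPM or more across mutant and WT together and had separated libraries, the hairpins with both strands included, the neighbours of the 40-read minimum and names with shared seeds. miR-6765-3p, miR-5010-3p, miR-3605-3p, miR-7111-3p and the intron-end list were added after their values were seen.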

Additional observations from a re-analysis of the deposited data

How the results depend on the processing

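The count of late-numbered names called in R1855L against WT was 2. It was 1 with library totals as the scale, 4 with no read filter, 16 with the depth class as a term and 0 with only the 4 libraries compared. It was also 1 with a mean of at least 50 CPM or with at least 200 summed reads. Those minimums leave out miR-6886-5p (126 reads, at most 19.7 CPM in a library) before the test, so no call was lost there. Leaving out each library gave 0 to 2: 0 without R1855L replicate 1, and 1 without either WT or either R1003Q library. In R821H against WT the depth term gave 1 (miR-6886-5p), and leaving out libraries gave 0 throughout, as it did for R1003Q against WT and R1003Q against R821H. R821H against R1855L gave 2 names without the filter, 6 with the depth term and 0 to 1 with a library left out. R1003Q against R1855L gave 3, 3 and 0 to 1. Strand ratios called in R1855L were 0 at 400 reads per strand, where miR-6765 was not tested, and 2 with the depth term. The shares of all hairpins called in those settings are not given here, so these counts are not read as particular to the late-numbered hairpins. In R821H and R1003Q the strand ratios called were 0. The 3p minus 5p median in R1855L was -0.14 over tested names, -0.78 without the filter, -0.67 without it and with the depth term, -0.82 without it and with library totals, and -0.74 to -0.062 with a library left out. Without the filter as well, it was -0.08 without R1855L replicate 1, -0.73 without WT replicate 1, and -0.77 without R1855L replicate 2 or either R1003Q library. In R821H it was -0.10 to 0.27 with a library left out. In R1003Q it was -0.19 to 0.045 with a library left out, -0.37 without the filter and with the depth term, and -0.27 or -0.33 without the filter and without WT replicate 2 or R1003Q replicate 2. miR-3613-5p in R1855L ranged from -0.23, a change of sign, without R1855L replicate 1 to 1.03 without R1855L replicate 2. With the depth term the shares of all 625 names called were 28.3% in R1855L and 2.56% in R821H against WT. They were 18.2% in R821H against R1855L and 14.9% in R1003Q against R1855L. The shares of all names called without the filter are not given here. Where no other reason is given, the cause was not tested.

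Replicate numbers did not pair the libraries: the deviations of equal numbers correlated at -0.69 (WT with R1855L), -0.68 (WT with R821H) and 0.56 (R1855L with R821H), and the deep library carries different numbers in different groups. With the replicate number as a block, 1 late-numbered name was called in R1855L against WT (miR-6886-5p was lost, adjusted p = 0.0643), and the miR-6765 ratio was no longer called between R1003Q and R1855L (limma adjusted p = 0.0555); the other counts above did not change. With crossed numbers, chosen after seeing the data, 15 were called in R1855L and 1 in R821H (miR-6886-5p). The share of all names called in that setting is not given here, so these counts are not read as particular to the late-numbered names. Depth limits most of these names, since a typical one had a median of 5 reads in the shallowest library.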
